A study of Homo sapiens with 5 samples.

Results

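Clone 4 and clone 3 are a pair of EZH2 inhibitor-resistant (EIR) clones of TOV21G cells, an established human line of ovarian clear cell carcinoma in which ARID1A is mutated, and they are compared here with each other. Members were chosen by the sample labels: the untreated and the GSK126-treated library of clone 3 (2 libraries) and the untreated and the GSK126-treated library of clone 4 (2 libraries), 4 of the 5 libraries of the series. The remaining library, of untreated parental TOV21G cells, was left out of every test and serves only to place values. Both clones had been obtained by raising the concentration of GSK126, an EZH2 inhibitor, in steps of 5, 10, 15 and 20 uM and picking clones once the cultures were stable at the last step, so all 4 libraries share the ARID1A mutation and a history of long exposure to the drug. How much GSK126 the treated cultures received, and for how long, is not in the labels. Each group is 1 clone, and the libraries of a clone differ in treatment, so every p-value below measures the spread between these libraries and not the spread between independently picked clones.

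EZH2 is the methyltransferase of Polycomb repressive complex 2 (PRC2), which places trimethylation on lysine 27 of histone H3 and keeps developmental and lineage genes silent. SWI/SNF, the chromatin remodelling complex to which ARID1A belongs, counteracts Polycomb, and cells without ARID1A can depend on EZH2. A culture that survives stepwise selection is a mixture of lineages, and each picked clone carries the genetic and epigenetic state of 1 founder. The comparison asks which functions and gene families differ between clones that share the resistance.

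Clone 4 and clone 3 differed at 1738 of 17708 tested genes (9.81%; DESeq2 adjusted p under 0.05, treatment as covariate). Of these, 584 genes (3.3% of those tested) were higher and 1154 (6.52%) were lower in clone 4, and these 3 shares are the background for every count below. The lower genes also differed by more, with a median log2 fold change of -1.90 against 0.95 for the higher genes. At least 2-fold differences were found for 269 higher and 827 lower genes. Over all tested genes the median log2 fold change was -0.0037 and the mean was -0.10. All log2 fold changes are clone 4 over clone 3, on the scale of normalized counts, with ± the standard error of the fit, and adjusted p-values are from DESeq2 unless edgeR is named. Among the called genes 1611 were protein-coding and 57 were long non-coding RNAs. In 1733 of the 1738 called genes both libraries of one clone lay outside the range of the other clone, as they did in 60.88% of all tested genes. edgeR called 2227 genes, 1621 of them shared with DESeq2, and 3270 genes had an unadjusted DESeq2 p under 0.05. With 1 library left out, and treatment therefore not fitted, DESeq2 called 875 genes without untreated clone 3, 831 without treated clone 3, 2800 without untreated clone 4 and 2122 without treated clone 4.

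The clones were also compared within each treatment, where 1 library stands against 1 and no difference was tested. Over 11465 genes averaging at least 100 normalized counts, the log2 ratio of clone 4 to clone 3 had an SD of 0.861 in untreated and 0.817 in treated libraries. The log2 ratio of the treated to the untreated library had an SD of 0.232 in clone 3 and 0.382 in clone 4. Pearson's r between the untreated and the treated clone difference was 0.864 across these genes, which are not independent replicates and share the same clones.

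**Figure D1:**
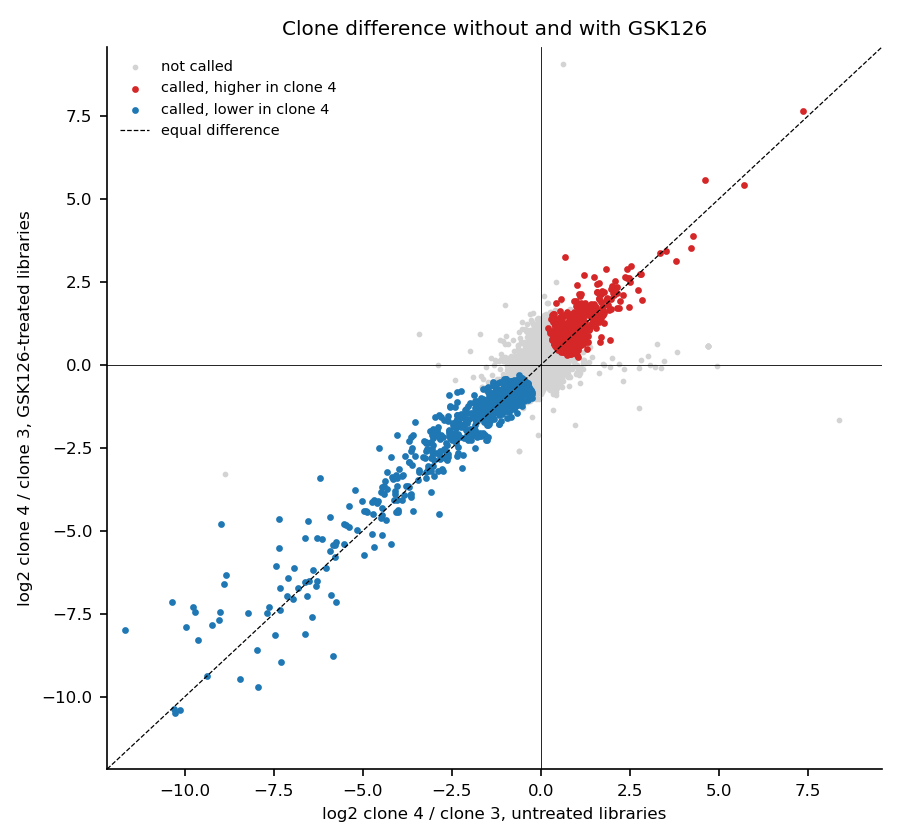
Log2 ratio of clone 4 to clone 3 in GSK126-treated libraries (vertical axis) against the same ratio in untreated libraries (horizontal axis), both with a pseudocount of 0.5, for 11465 genes. Each point is a gene, coloured by its DESeq2 call, and the points lie along the dashed line of equal difference (r = 0.864).

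Total counts were 25479238 to 30764963 per library, and 15588 to 16432 genes had at least 10 counts. Identity of the cells was read from marker genes in raw counts. PAX8 (3031 to 4446 counts), ANXA4 (5482 to 7134), KRT18 (14312 to 18015) and VIM (36240 to 38004) were present in all 4 libraries. Markers of blood, vessel wall and fibroblast cells were at or near 0, with 2 to 15 counts of PTPRC, 5 to 16 of VWF, 4 to 10 of CDH5, 10 to 50 of DCN and 0 of HBA1. Small nucleolar RNAs set the untreated library of clone 4 apart, with 56699 normalized counts summed over 180 measured genes against 20108 to 22490 in the other clone libraries. Of these genes 67 were tested, and none was called by DESeq2 (2 higher and 0 lower by edgeR, with 5 higher and 0 lower at an unadjusted p under 0.05). Below, pairs of values are normalized counts in the untreated and then the GSK126-treated library of a clone. Where leaving out 1 library moved an adjusted p past 0.05, that p is given with the library's name. Counts of calls in 4 omissions leave out untreated clone 3, untreated clone 4, treated clone 3 and treated clone 4, in this order.

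SMARCA4, SMARCA2, ARID1A, EZH2 and BCL2, which the study followed for the drug and its resistance, were not called between the clones. SMARCA4, a catalytic subunit of SWI/SNF, had 8727 and 8914 in clone 3 and 8344 and 8572 in clone 4 (log2 fold change -0.06 ± 0.16, adjusted p 0.945, edgeR adjusted p 0.864). SMARCA2, its alternative, had 2554 and 3129 in clone 3 and 3484 and 3458 in clone 4 (log2 fold change 0.30 ± 0.18, adjusted p 0.416, edgeR adjusted p 0.18). For ARID1A the values were 356 and 298 in clone 3 and 422 and 705 in clone 4 (log2 fold change 0.74 ± 0.30, adjusted p 0.113, edgeR adjusted p 0.108), with the highest value in treated clone 4. EZH2 had 2589 and 2601 in clone 3 and 3301 and 3208 in clone 4 (log2 fold change 0.33 ± 0.17, adjusted p 0.307, edgeR adjusted p 0.12). BCL2, which blocks mitochondrial apoptosis, had 584 and 686 in clone 3 and 564 and 663 in clone 4 (log2 fold change -0.05 ± 0.24, adjusted p 0.975, edgeR adjusted p 0.889). The signs for SMARCA4 and BCL2 turned under GC correction or an omission, and ARID1A was called when the treatment covariate was dropped.

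The largest rises in clone 4 held a receptor, a potassium channel, secreted matrix and growth factor proteins and regulatory RNAs. HEY2 (ENSG00000135547, chr6:126068810-126082415), a repressor of the Notch pathway, had 6.54 and 8.87 in clone 3 and 364 and 399 in clone 4 (log2 fold change 5.64 ± 0.51, adjusted p 1.90e-26). SUCNR1, the receptor for extracellular succinate, had 18.7 and 14.8 in clone 3 and 368 and 226 in clone 4 (log2 fold change 4.13 ± 0.46, adjusted p 1.99e-17) and was at 0 in the parental library. COMP, a cartilage matrix protein, had 138 and 135 in clone 3 and 2586 and 1568 in clone 4 (log2 fold change 3.88 ± 0.24, adjusted p 8.73e-56). PDE3A, a phosphodiesterase of cyclic nucleotides, had 208 and 218 in clone 3 and 2375 and 2371 in clone 4 (log2 fold change 3.48 ± 0.21, adjusted p 9.00e-61). Parental cells held 4515 and 3916 of these transcripts, so clone 3 was the lower library pair for both. TMTC1, a mannosyltransferase of the endoplasmic reticulum, had 32.7 and 43.4 in clone 3 and 461 and 383 in clone 4 (log2 fold change 3.47 ± 0.38, adjusted p 2.76e-18). All coordinates of genes are those of GENCODE release 44 on GRCh37.

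Further secreted factors rose in clone 4. IGFBP5, a carrier of insulin-like growth factors, had 2028 and 2404 in clone 3 and 20822 and 24745 in clone 4 (log2 fold change 3.36 ± 0.16, adjusted p 6.16e-97) with 766 in parental cells. NDNF, a secreted neurotrophic factor, had 34.5 and 51.3 in clone 3 and 246 and 347 in clone 4 (log2 fold change 2.79 ± 0.40, adjusted p 1.55e-10). CRISPLD2, a secreted cysteine-rich protein, had 47.6 and 74.0 in clone 3 and 269 and 453 in clone 4 (log2 fold change 2.56 ± 0.36, adjusted p 8.98e-11). Transcripts of these secreted proteins were lower in both libraries of clone 3 than in either library of clone 4. KCNJ6, an inwardly rectifying potassium channel, had 31.7 and 39.4 in clone 3 and 186 and 316 in clone 4 (log2 fold change 2.78 ± 0.43, adjusted p 6.94e-09). GPRIN3 had 299 and 266 in clone 3 and 1592 and 1638 in clone 4 (log2 fold change 2.52 ± 0.22, adjusted p 2.08e-28). H19, the maternally expressed imprinted RNA, had 33.6 and 67.1 in clone 3 and 183 and 498 in clone 4 (log2 fold change 2.68 ± 0.38, adjusted p 1.66e-10), higher in the treated library of each clone. No library of clone 4 overlapped one of clone 3 in the rises named here, as in 1733 of the 1738 called genes and 60.88% of tested genes. Each of these rises kept its call whichever library was left out.

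MIR100HG (ENSG00000255248, chr11:121899033-122427429), a long non-coding RNA that hosts 3 microRNA hairpins conserved as a cluster, had 8.40 and 4.93 in clone 3 and 215 and 257 in clone 4 (log2 fold change 5.14 ± 0.59, adjusted p 3.37e-16) against 1418 in parental cells. MIR99AHG (ENSG00000215386, chr21:17300616-18018683), the host of the paralogous cluster, was 16th among the rises and is named after its value was seen, with 85.9 and 69.0 in clone 3 and 494 and 389.7 in clone 4 (log2 fold change 2.51 ± 0.33, adjusted p 2.18e-12) and 191 in parental cells. Host transcripts were measured here, and the mature microRNAs were not. The mature sequences are shown because both hosts carry the same seeds, the bases 2 to 8 that pair with a target, printed in capitals (RefSeq, GRCh38.p14; all 6 matched by name).
hsa-miR-100-5p: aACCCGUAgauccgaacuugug
hsa-miR-99a-5p: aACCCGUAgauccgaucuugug
hsa-let-7a-5p: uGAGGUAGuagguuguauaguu
hsa-let-7c-5p: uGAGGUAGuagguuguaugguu
hsa-miR-125b-5p: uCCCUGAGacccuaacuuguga
The pair miR-100 and miR-99a shares 1 seed, the pair let-7a and let-7c another, and miR-125b has the same mature sequence from either host. In GRCh38.p14 coordinates the mature sequences of MIR100HG lie on the minus strand (miR-125b at chr11:122099809-122099830, let-7a at chr11:122146568-122146589 and miR-100 at chr11:122152275-122152296). Those of MIR99AHG lie on the plus strand (miR-99a at chr21:16539101-16539122, let-7c at chr21:16539838-16539859 and miR-125b at chr21:16590253-16590274).

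The list built around MIR100HG, with processing factors and known let-7 targets, does not hold MIR99AHG. In it 1 of 9 tested members (MIR100HG) was called higher and 3 lower in clone 4 (median log2 fold change -0.04, mean 0.16). IGF2BP1, an oncofetal RNA-binding protein, was the largest fall at 563 and 648 in clone 3 and 12.2 and 22.1 in clone 4 (log2 fold change -5.17 ± 0.40, adjusted p 2.62e-36). The chromatin architectural proteins HMGA2 and HMGA1 were lower as well. HMGA2 had 7291 and 8013 in clone 3 and 4812 and 4842 in clone 4 (log2 fold change -0.66 ± 0.16, adjusted p 0.00105, 0.125 without treated clone 3). HMGA1 had a log2 fold change of -0.61 (adjusted p 0.0183, and 0.166, 0.123 and 0.615 without untreated clone 3, untreated clone 4 or treated clone 3).

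**Figure D2:**
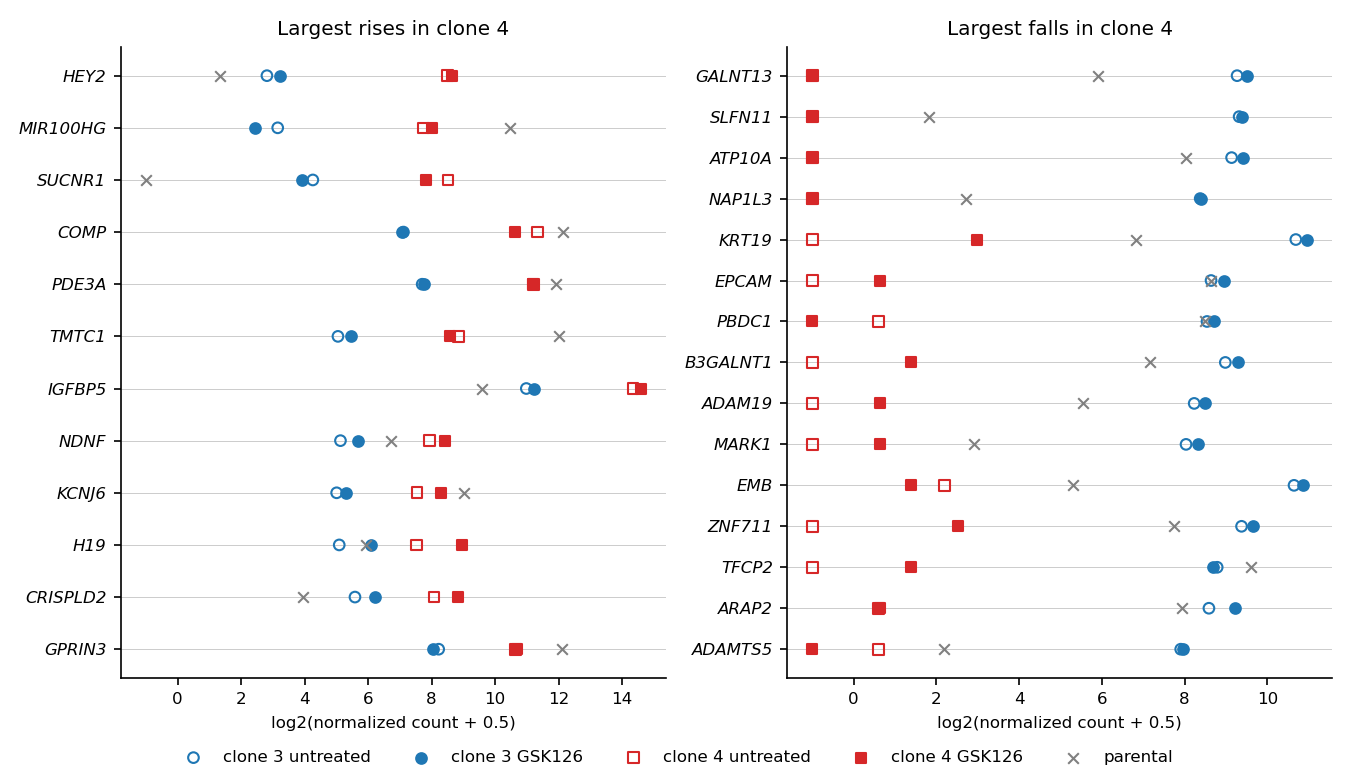
Normalized counts on a log2 scale (pseudocount 0.5) in each library for genes among the 15 largest rises and for the 15 largest falls in clone 4. Circles are clone 3, squares clone 4 (open untreated, filled GSK126-treated) and crosses the parental library, and in every gene the clone 4 symbols lie apart from the clone 3 symbols, at 0 counts in both libraries for GALNT13, SLFN11, ATP10A and NAP1L3.

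The largest falls were in genes with few or no counts in clone 4, some of which were also near 0 in parental cells. GALNT13 (ENSG00000144278, chr2:154728435-155310491), which starts O-linked glycans on mucin-type proteins, stood at 615 and 727 in clone 3 and 0 and 0 in clone 4 (at least 216-fold lower, adjusted p 0.0362). SLFN11 (ENSG00000172716, chr17:33677324-33700720), which blocks stressed replication forks, had 637 and 666 in clone 3 and 0 and 0 in clone 4 (at least 209.5-fold lower, adjusted p 0.037). ATP10A, a phospholipid flippase, had 561 and 678 in clone 3 and 0 and 0 in clone 4 (at least 199-fold lower, adjusted p 0.0388). NAP1L3, of the nucleosome assembly protein family, had 331 and 335 in clone 3 and 0 and 0 in clone 4 (at least 107-fold lower, adjusted p 4.15e-11). These bounds are computed against 3 counts per library, the limit that a count of 0 allows. Without the independent filtering of DESeq2, the adjusted p of the first 3 genes was not past the threshold: 0.061 for GALNT13, 0.0624 for SLFN11 and 0.0654 for ATP10A. edgeR gave adjusted p-values of 1.82e-04, 1.84e-04 and 1.92e-04. With a correction for GC content the adjusted p of NAP1L3 was 0.0617. Parental cells held 59.4 of GALNT13, 3.02 of SLFN11, 263 of ATP10A and 6.04 of NAP1L3.

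KRT19, a simple-epithelium keratin, had 1646 and 1994 in clone 3 and 0 and 7.37 in clone 4 (log2 fold change -10.19 ± 2.10, adjusted p 3.76e-05, 0.22 and 0.263 without untreated or treated clone 3). EPCAM, the epithelial cell adhesion molecule, had 398 and 491 in clone 3 and 0 and 1.05 in clone 4 (adjusted p 1.12e-09), with 400.4 in parental cells, a level within the clone 3 range. PBDC1 had 372 and 421 in clone 3 and 1.02 and 0 in clone 4 (adjusted p 5.64e-09) and 359 in parental cells. B3GALNT1, which makes the glycolipid globoside, had 505 and 622 in clone 3 and 0 and 2.11 in clone 4 (adjusted p 5.19e-08). In all of these, both libraries of clone 4 were near 0. ADAM19, a membrane metalloprotease, had 299.7 and 359 in clone 3 and 0 and 1.05 in clone 4 (adjusted p 1.04e-08). MARK1, a kinase of microtubule-associated proteins, had 261 and 320.5 in clone 3 and 0 and 1.05 in clone 4 (adjusted p 2.25e-08). EMB, a chaperone of monocarboxylate transporters, had 1598 and 1859.7 in clone 3 and 4.08 and 2.11 in clone 4 (log2 fold change -9.12 ± 0.64, adjusted p 2.61e-43). ZNF711, an X-linked zinc finger protein, had 663 and 809.5 in clone 3 and 0 and 5.27 in clone 4 (log2 fold change -9.04 ± 1.88, adjusted p 4.49e-05, 0.241 and 0.291 without untreated or treated clone 3). Again both libraries of clone 4 held almost no reads of these genes. TFCP2, a transcription factor, had 441 and 414 in clone 3 and 0 and 2.11 in clone 4 (adjusted p 2.41e-06). ARAP2, a regulator of small GTPases, had 384 and 599 in clone 3 and 1.02 and 1.05 in clone 4 (adjusted p 1.31e-14). ADAMTS5, an aggrecan-cleaving protease, had 239 and 247 in clone 3 and 1.02 and 0 in clone 4 (adjusted p 1.27e-07). Genes with 3 counts or fewer in both clone 4 libraries are given without a fold change, which such counts do not fix.

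Silent genes lay in 1 clone. In clone 4, 41 genes had at most 3 counts in both libraries while both libraries of clone 3 had at least 100, and 0 genes met the reverse condition. Of the 41, 39 were protein-coding and 38 were called by DESeq2. The rule that picked them requires a large difference, so these calls are no separate evidence. The parental library held more than 3 counts for 32 of them, at least 100 for 16, and 3 or fewer for 9. Besides the genes above they included LEF1, PRRX1, ALDH1A3, HOXB9, DSC2 and GUCY1A2, described with their pathways below.

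The promoters of HEY2, the largest rise with an entry, and of GALNT13 and SLFN11, the largest falls, are printed with CG pairs in capitals (RefSeq, GRCh38.p14, 250 bases before to 50 after the start).
HEY2, plus strand, chr6:125749382-125749681: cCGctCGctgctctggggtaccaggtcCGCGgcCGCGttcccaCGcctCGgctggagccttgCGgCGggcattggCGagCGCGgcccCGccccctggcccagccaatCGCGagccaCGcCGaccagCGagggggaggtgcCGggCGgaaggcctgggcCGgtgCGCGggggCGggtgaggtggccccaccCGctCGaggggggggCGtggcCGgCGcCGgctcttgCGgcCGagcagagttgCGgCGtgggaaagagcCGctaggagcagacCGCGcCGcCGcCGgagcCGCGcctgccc
GALNT13, plus strand, chr2:153068043-153068342: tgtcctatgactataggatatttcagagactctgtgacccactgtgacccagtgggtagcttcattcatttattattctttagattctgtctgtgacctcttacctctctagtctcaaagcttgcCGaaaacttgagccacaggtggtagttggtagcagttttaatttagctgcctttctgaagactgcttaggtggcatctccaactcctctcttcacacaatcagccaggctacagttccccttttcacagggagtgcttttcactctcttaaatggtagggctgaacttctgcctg
SLFN11, minus strand, chr17:35373572-35373871: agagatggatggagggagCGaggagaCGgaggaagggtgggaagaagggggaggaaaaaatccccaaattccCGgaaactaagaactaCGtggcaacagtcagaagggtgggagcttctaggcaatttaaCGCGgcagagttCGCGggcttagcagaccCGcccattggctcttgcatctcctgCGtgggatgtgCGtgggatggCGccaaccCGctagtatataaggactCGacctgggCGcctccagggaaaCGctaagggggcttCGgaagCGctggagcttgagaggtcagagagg
HEY2 held 43 CG pairs and 79% G or C, GALNT13 held 1 and 45%, and SLFN11 held 18 and 58%. The promoter of MIR100HG, also a rise and not printed, held 10 CG pairs and 53% G or C, less than the fall SLFN11. These promoters thus did not divide by direction in CpG content. Of the motifs searched on both strands, which do not overlap each other, CCAAT was present in HEY2 and SLFN11 and in 35.7% of 27305 promoters. TATAAA (12% of promoters) and CACGTG (7.43%) were found in none of the 3 printed windows. A promoter entry was at hand for 66.55% of tested genes, too few to compare CpG content between higher and lower genes.

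Inflammatory genes were lower in clone 4. Cytokines and chemokines recruit and activate leukocytes, and many are induced by NF-kB. Among cytokines, chemokines and NF-kB targets, 1 of 22 tested members was called higher and 15 lower in clone 4 (median log2 fold change -2.43). Summed over the 33 measured members, normalized counts were 41016 and 40218 in clone 3, 8781 and 6950 in clone 4 and 24341 in the parental library. Of the 16 called members, 15 kept the call whichever library was left out. CCL20, which attracts CCR6-bearing lymphocytes and dendritic cells, had 4737 and 4874 in clone 3 and 78.4 and 39.0 in clone 4 (log2 fold change -6.40 ± 0.26, adjusted p 1.18e-128). IL32, a proinflammatory cytokine, had 4782 and 4521 in clone 3 and 179 and 132 in clone 4 (log2 fold change -4.91 ± 0.20, adjusted p 1.02e-125). Clone 3 was high and clone 4 low with and without the drug. CXCL8, a neutrophil attractant, had 6342 and 7171 in clone 3 and 525 and 335 in clone 4 (log2 fold change -4.00 ± 0.21, adjusted p 2.07e-74). CXCL1, of the same class, had 5725 and 5176 in clone 3 and 456 and 347 in clone 4 (log2 fold change -3.77 ± 0.18, adjusted p 6.11e-90). CCL2, a monocyte attractant, had 3447 and 3704 in clone 3 and 407 and 260.2 in clone 4 (log2 fold change -3.45 ± 0.22, adjusted p 2.85e-52). TNF and IL6, central inflammatory cytokines, were lower too. TNF had 995 and 761 in clone 3 and 106 and 81.1 in clone 4 (log2 fold change -3.23 ± 0.27, adjusted p 3.43e-30). IL6 had 1211 and 976 in clone 3 and 162 and 106 in clone 4 (log2 fold change -3.05 ± 0.25, adjusted p 7.68e-31).

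The parental library did not fall on 1 side of the clones. CCL20 (68.4), CXCL8 (182) and CCL2 (299) had parental values near or below those of clone 4. IL6 (1639.7), CXCL5 (3035) and ICAM1 (2305) had parental values above those of clone 3. CXCL5 had 397 and 335 in clone 3 and 59.1 and 35.8 in clone 4 and ICAM1, an adhesion ligand of leukocyte integrins, had 1313 and 1229 in clone 3 and 245 and 254 in clone 4. Feedback inhibitors of NF-kB were lower as well, with log2 fold changes of -1.54 for TNFAIP3 and -1.13 for NFKBIA. The other called falls were CXCL2 at -2.63, CXCL3 at -1.84, LIF at -1.92 and CX3CL1 at -2.51 (adjusted p 0.00396, 0.138 and 0.172 without untreated or treated clone 3). The only called rise was CCL28, a mucosal chemokine, with 257 and 203 in clone 3 and 943 and 716 in clone 4 (log2 fold change 1.85 ± 0.25, adjusted p 1.41e-11). Interleukin receptors showed falls without a rise called by DESeq2 (6 falls of 20 tested; rises 0 by edgeR and 0 at an unadjusted p under 0.05), of which 3 kept the call in every omission of a library. They were IL1R2, IL18R1, IL15RA, IL1R1, IL6R and IL27RA.

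**Figure D3:**
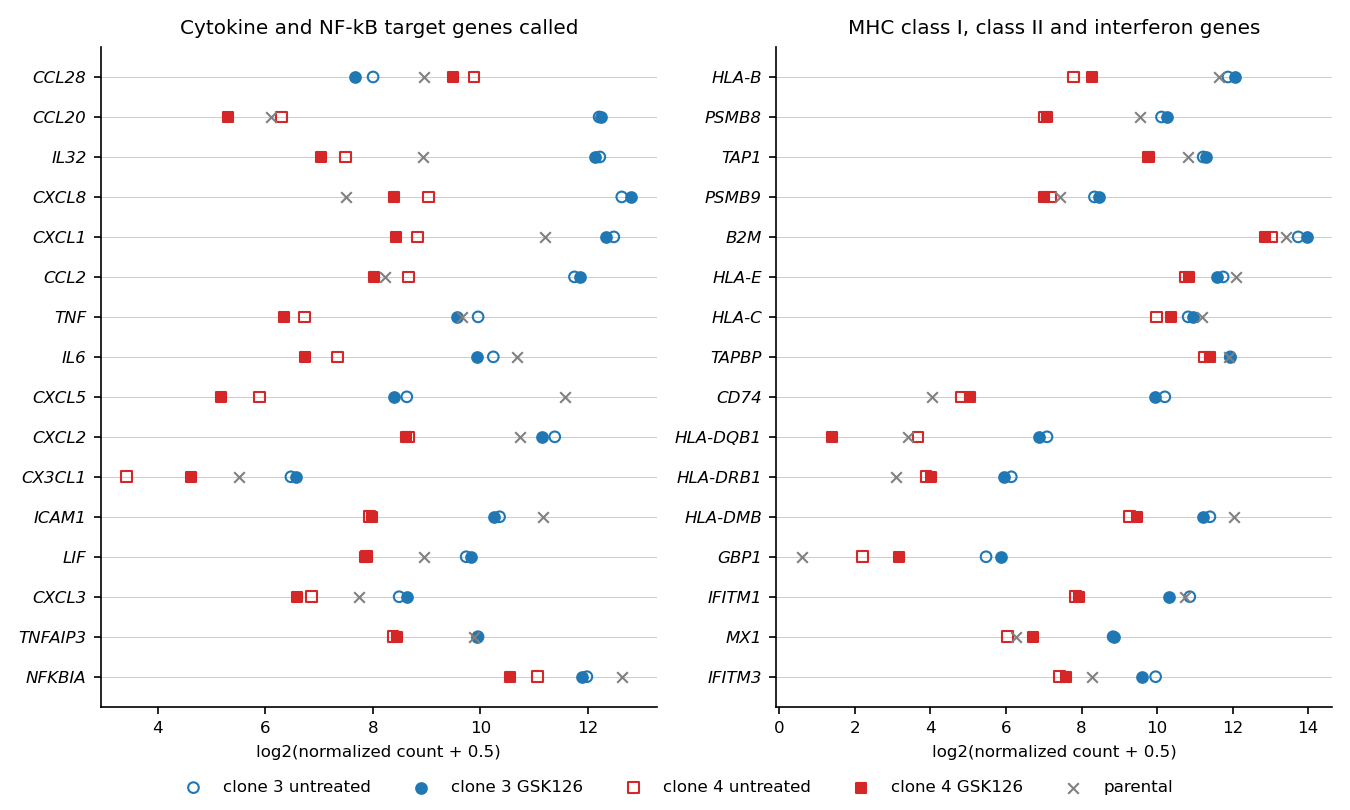
Normalized counts on a log2 scale (pseudocount 0.5) in each library for the 16 called cytokine and NF-kB target genes (left), and for called MHC class I genes, called MHC class II genes and the largest falls among interferon-stimulated genes (right). Circles are clone 3, squares clone 4 and crosses parental cells. All rows were chosen as called genes, and the clone 4 squares lie to the left of the clone 3 circles in every row but CCL28.

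Antigen presentation genes were lower in the same clone. MHC class I molecules display peptides from the cytosol, which the immunoproteasome cuts and the TAP transporter carries into the endoplasmic reticulum. For this route 0 of 19 tested members were called higher and 9 lower in clone 4 (median log2 fold change -0.70), and 18 of 19 had a negative log2 fold change; edgeR called 0 higher and 0 had an unadjusted p under 0.05. HLA-B stood at 3767 and 4322 in clone 3 and 221 and 308 in clone 4 (log2 fold change -3.95 ± 0.19, adjusted p 4.21e-88). The immunoproteasome subunit PSMB8 had 1110.2 and 1236 in clone 3 and 129 and 135 in clone 4 (log2 fold change -3.15 ± 0.25, adjusted p 4.87e-35). TAP1 had 2388 and 2520.3 in clone 3 and 885 and 859.5 in clone 4 (log2 fold change -1.49 ± 0.19, adjusted p 3.33e-13). B2M, the invariant light chain, had 13663 and 15991 in clone 3 and 8356 and 7407 in clone 4 (log2 fold change -0.91 ± 0.17, adjusted p 3.92e-06). HLA-E had a log2 fold change of -0.88. For HLA-C it was -0.72 (adjusted p 0.00384, 0.0875 and 0.254 without untreated or treated clone 3) and for TAPBP -0.59 (adjusted p 0.00955, 0.183 and 0.167 without untreated or treated clone 3). The number called was 7, 11, 5 and 11 in the 4 omissions. HLA genes are polymorphic paralogs, so the estimated counts can divide reads among them.

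MHC class II genes, which present extracellular peptides and are rarely expressed outside antigen-presenting cells, followed with 4 falls among 9 tested genes and no rise called by DESeq2 (0 by edgeR and 0 at an unadjusted p under 0.05; median log2 fold change -2.19). CD74, the invariant chain, had 1181 and 982 in clone 3 and 27.5 and 32.7 in clone 4 (log2 fold change -5.16 ± 0.31, adjusted p 9.90e-58) against 16.1 in parental cells. HLA-DMB had 2703 and 2393 in clone 3 and 620.5 and 707 in clone 4 (log2 fold change -1.94 ± 0.20, adjusted p 3.65e-20) and 4231 in parental cells. HLA-DQB1 had 135 and 116 in clone 3 and 12.2 and 2.11 in clone 4 (log2 fold change -4.34 ± 0.73, adjusted p 1.47e-07). The log2 fold change of HLA-DRB1 was -2.12 (adjusted p 0.0459, and 0.442, 0.0516 and 0.281 without untreated clone 3, untreated clone 4 or treated clone 3). The leukocyte marker PTPRC lay at 2 to 15 counts in the 4 libraries.

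Interferon-stimulated genes, the antiviral effectors and sensors, were called lower for 11 of 45 tested members and higher for none by DESeq2 (1 by edgeR and 1 at an unadjusted p under 0.05; median log2 fold change -0.35). IFITM1, a membrane restriction factor, had 1868 and 1286 in clone 3 and 229 and 242 in clone 4 (log2 fold change -2.72 ± 0.24, adjusted p 1.86e-27). Its paralog IFITM3 had 997 and 774 in clone 3 and 170.1 and 192 in clone 4 (log2 fold change -2.28 ± 0.27, adjusted p 1.27e-15). MX1, an antiviral GTPase, had 457 and 460.5 in clone 3 and 65.2 and 105 in clone 4 (log2 fold change -2.46 ± 0.34, adjusted p 5.81e-11). The RNA sensors RIGI and IFIH1 had log2 fold changes of -0.87 and -1.41 (adjusted p 9.53e-04, 0.141 without treated clone 3). For GBP3, HERC6 and IFITM2 they were -1.61, -1.56 and -1.06 (adjusted p 0.00124, 0.147 without untreated clone 3). Of the 11, 7 kept the call in every omission of a library. The normalized counts summed over the 46 measured members were 58308 and 59779 in clone 3, 32861 and 30524 in clone 4 and 27647 in the parental library.

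Epithelial genes were lower in clone 4, and none of the tested members was called higher. Epithelial cells are tied together by adherens junctions, desmosomes and tight junctions. In this list 0 of 26 tested members were called higher and 12 lower in clone 4 (median log2 fold change -0.81), edgeR called 0 higher and 0 had an unadjusted p under 0.05, and 9 of the 12 kept the call in every omission of a library. DSP, the desmosomal plaque protein desmoplakin, had 5518 and 7406 in clone 3 and 55.0 and 26.3 in clone 4 (log2 fold change -7.38 ± 0.70, adjusted p 5.04e-24). CDH1, E-cadherin of the adherens junction, had 101 and 146 in clone 3 and 2.04 and 4.21 in clone 4 (log2 fold change -5.33 ± 0.83, adjusted p 7.80e-09) and 6.04 in parental cells. OCLN, occludin of the tight junction, had 1553 and 1718 in clone 3 and 91.7 and 173 in clone 4 (log2 fold change -3.68 ± 0.26, adjusted p 2.23e-44). All 3 are parts of cell contacts, and in each the clones did not overlap, as in 60.88% of all tested genes. DSC2, a desmosomal cadherin, had 137 and 132 in clone 3 and 1.02 and 0 in clone 4 (adjusted p 4.41e-06). PKP3, a plakophilin, had 384 and 434 in clone 3 and 53 and 92.7 in clone 4 (log2 fold change -2.53 ± 0.36, adjusted p 9.07e-11). CLDN1, the tight junction claudin, had 19430.3 and 17093 in clone 3 and 6989 and 6799 in clone 4 (log2 fold change -1.40 ± 0.16, adjusted p 1.38e-16). Junction proteins of parental cells were nearer to clone 3 for DSP (6144), OCLN (1119) and EPCAM (400.4), and nearer to clone 4 for CDH1.

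Mesenchymal genes did not move as 1 group. Of 15 tested members 3 were higher and 4 lower (median log2 fold change 0.12, mean -0.52), and the number called was 3, 8, 4 and 8 in the 4 omissions. SPARC, a collagen-binding matrix protein, had 4352 and 3935 in clone 3 and 17033 and 15479 in clone 4 (log2 fold change 1.97 ± 0.16, adjusted p 4.32e-33). ZEB2, a repressor of E-cadherin, had 85.9 and 117 in clone 3 and 232 and 387 in clone 4 (log2 fold change 1.58 ± 0.36, adjusted p 2.25e-04, 0.0683 without untreated clone 3). PRRX1, a mesenchymal homeobox factor, had 148 and 274 in clone 3 and 0 and 1.05 in clone 4 (adjusted p 5.19e-08). S100A4, a calcium-binding protein of motile cells, had 3957 and 4804 in clone 3 and 1044 and 1161 in clone 4 (log2 fold change -1.99 ± 0.18, adjusted p 6.97e-27). CDH2, N-cadherin, had a log2 fold change of -0.69 (adjusted p 0.00452, 0.0536 and 0.214 without untreated or treated clone 3) and 17.1 normalized counts in parental cells. VIM had 33839 and 37474 in clone 3 and 37610.1 and 39966 in clone 4 (log2 fold change 0.12 ± 0.15, adjusted p 0.821, edgeR adjusted p 0.588). Among the cadherin list, CDH6 was lower besides CDH1 and CDH2, with 989 and 1190.2 in clone 3 and 80.5 and 147 in clone 4 (log2 fold change -3.30 ± 0.27, adjusted p 3.60e-32).

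Keratins were called higher for 3 and lower for 3 of 14 tested genes. Keratin genes and their pseudogenes can share reads, so these values are uncertain. The hair-type keratins KRT86 and KRT81 were higher. KRT86 had 30.8 and 74.9 in clone 3 and 173 and 255 in clone 4 (log2 fold change 2.11 ± 0.44, adjusted p 5.64e-05, 0.0801 without untreated clone 3). KRT81 had 111 and 136 in clone 3 and 295 and 485 in clone 4 (log2 fold change 1.62 ± 0.33, adjusted p 2.68e-05). KRT5, a basal keratin, had 0 and 4.93 in clone 3 and 13.2 and 89.5 in clone 4, and its adjusted p was 0.00253, 0.152 without untreated clone 3 and 0.39 without untreated clone 4. Besides KRT19, KRT23 had a log2 fold change of -3.91 and KRT8 one of -0.65 (adjusted p 0.0028, 0.383 without treated clone 3).

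Matrix proteins differed in both directions, while the called integrins all fell. Integrins are the heterodimeric receptors that bind cells to the matrix. Of 18 tested integrin genes 7 were lower and none was called higher by DESeq2 (0 by edgeR and 0 at an unadjusted p under 0.05; median log2 fold change -0.55), and the number called was 5, 7, 5 and 9 in the 4 omissions. ITGA2, the collagen-binding alpha-2 subunit, had 3508 and 3601 in clone 3 and 883 and 950.1 in clone 4 (log2 fold change -1.96 ± 0.18, adjusted p 6.37e-25) and 44.3 in parental cells. ITGB4, the hemidesmosome subunit, had 148 and 179 in clone 3 and 10.2 and 9.48 in clone 4 (log2 fold change -4.05 ± 0.60, adjusted p 6.21e-10). The next 2 are subunits of receptors that activate latent TGF-beta. ITGB8 had 18836 and 19231 in clone 3 and 7939.7 and 7526 in clone 4 (log2 fold change -1.30 ± 0.16, adjusted p 1.76e-14). ITGB6 had 532 and 711 in clone 3 and 178 and 163 in clone 4 (log2 fold change -1.85 ± 0.29, adjusted p 9.15e-09). ITGAM had 94.3 and 97.6 in clone 3 and 3.06 and 9.48 in clone 4 (log2 fold change -4.04 ± 0.78, adjusted p 8.27e-06). Collagens were lower for 7 of 27 tested genes with no call in the other direction by DESeq2 (1 by edgeR and 3 at an unadjusted p under 0.05; median log2 fold change -0.44), of which 4 kept the call in every omission. COL4A2, of the basement membrane, had 14037 and 14065 in clone 3 and 6243 and 6087 in clone 4 (log2 fold change -1.19 ± 0.16, adjusted p 5.16e-12). COL12A1 had 8204 and 7902 in clone 3 and 2533 and 3955 in clone 4 (log2 fold change -1.35 ± 0.20, adjusted p 5.68e-10). COL6A1 had 163 and 284 in clone 3 and 19.4 and 41.1 in clone 4 (log2 fold change -2.92 ± 0.46, adjusted p 1.17e-08). COL14A1 had 265 and 318 in clone 3 and 1.02 and 4.21 in clone 4 (log2 fold change -6.84 ± 0.77, adjusted p 5.53e-17).

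Among matricellular proteins and proteoglycans 6 of 35 tested members were called higher and 8 lower in clone 4 (median log2 fold change -0.32), 10 of the 14 in every omission of a library. Called glypicans, the lipid-anchored heparan sulfate proteoglycans that present growth factors, were higher. GPC3 had 36.4 and 32.5 in clone 3 and 159 and 162 in clone 4 (log2 fold change 2.22 ± 0.49, adjusted p 1.84e-04). GPC4 had 1811 and 1638 in clone 3 and 3244 and 4697 in clone 4 (log2 fold change 1.18 ± 0.20, adjusted p 3.37e-07). GPC6 had 1285 and 1307 in clone 3 and 2957 and 2883 in clone 4 (log2 fold change 1.17 ± 0.18, adjusted p 5.64e-09). The glypican GPC6 was at 11.1 in parental cells. The basement membrane linkers were lower. NID2 had 6218 and 5655 in clone 3 and 1038 and 1267 in clone 4 (log2 fold change -2.37 ± 0.18, adjusted p 3.75e-35). HSPG2 had 2595 and 3230.3 in clone 3 and 516 and 750.0 in clone 4 (log2 fold change -2.22 ± 0.19, adjusted p 1.40e-28). FBN2, a microfibril protein, had 162 and 121 in clone 3 and 11.2 and 14.7 in clone 4 (log2 fold change -3.44 ± 0.60, adjusted p 4.38e-07). THBS1, an activator of TGF-beta, had a log2 fold change of -1.19.

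Proteases that cut the matrix were lower for 11 and higher for 2 of 29 tested genes (median log2 fold change -0.64). MMP7, matrilysin of epithelial cells, had 3103 and 3671 in clone 3 and 330.1 and 347 in clone 4 (log2 fold change -3.32 ± 0.19, adjusted p 2.09e-63). ADAMTS1 had 3337 and 3348 in clone 3 and 463 and 736 in clone 4 (log2 fold change -2.52 ± 0.21, adjusted p 7.69e-30). MMP15, a membrane-type protease, had a log2 fold change of -1.64. TIMP2, an inhibitor of these enzymes, was higher at a log2 fold change of 0.67 (adjusted p 0.0431, and 0.807, 0.165 and 0.747 without untreated clone 3, treated clone 3 or treated clone 4). The other higher gene was ADAMTS7 at 2.21 (adjusted p 0.0348, and 0.117, 0.223 and 0.3 without untreated clone 3, treated clone 3 or treated clone 4). The number called was 9, 12, 4 and 11 in the 4 omissions, and 4 of the 13 members kept the call in all of them.

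Guidance genes, which steer axons and also migrating and vessel-forming cells, separated the clones within each family. For semaphorins, plexins, slits and netrins 9 of 38 tested members were called higher and 7 lower in clone 4 (median log2 fold change -0.04; 0.04 after GC correction), and 11 of the 16 kept the call in every omission. Among the secreted class 3 semaphorins, SEMA3A had 718 and 991 in clone 3 and 5133 and 3846 in clone 4 (log2 fold change 2.40 ± 0.22, adjusted p 7.58e-25). SEMA3B had 115 and 140.0 in clone 3 and 339 and 409.8 in clone 4 (log2 fold change 1.56 ± 0.33, adjusted p 5.09e-05). Other members of the class were lower. SEMA3D had 127 and 140.0 in clone 3 and 11.2 and 10.5 in clone 4 (log2 fold change -3.62 ± 0.62, adjusted p 2.38e-07). SEMA3C had 20132 and 22707 in clone 3 and 12806 and 10599.8 in clone 4 (log2 fold change -0.88 ± 0.17, adjusted p 1.29e-05). The transmembrane pair of class 5 also parted. SEMA5B had 3.73 and 6.90 in clone 3 and 93.7 and 136 in clone 4 (log2 fold change 4.46 ± 0.73, adjusted p 6.06e-08). SEMA5A had 861 and 1151 in clone 3 and 15.3 and 26.3 in clone 4 (log2 fold change -5.61 ± 0.34, adjusted p 1.69e-57).

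Slits and their receptors parted in the same manner. SLIT3, a ligand, had 5.6 and 13.8 in clone 3 and 125 and 221 in clone 4 (log2 fold change 4.21 ± 0.59, adjusted p 7.60e-11). SLIT2 had 347 and 382 in clone 3 and 1028 and 1739 in clone 4 (log2 fold change 1.88 ± 0.24, adjusted p 3.19e-13). ROBO2, a receptor of both, had 765 and 696 in clone 3 and 10.2 and 17.9 in clone 4 (log2 fold change -5.71 ± 0.41, adjusted p 8.72e-42). The ligands were thus higher and this receptor lower. NRP1, a co-receptor of class 3 semaphorins and VEGF, had 5609.9 and 5768 in clone 3 and 14404 and 12781 in clone 4 (log2 fold change 1.25 ± 0.16, adjusted p 1.14e-12), and the semaphorin receptor PLXND1 had 177 and 205 in clone 3 and 417 and 675 in clone 4 (log2 fold change 1.48 ± 0.29, adjusted p 1.38e-05) with 3075 in parental cells. In the ephrin system 2 of 17 tested members were called higher and 5 lower in clone 4 (median log2 fold change -0.43), and 3 of the 7 held in every omission. EFNB1, a ligand, had 2438 and 2847 in clone 3 and 375 and 408 in clone 4 (log2 fold change -2.75 ± 0.20, adjusted p 4.96e-42). EFNA1 had 733 and 785 in clone 3 and 201 and 180.1 in clone 4 (log2 fold change -2.0 ± 0.26, adjusted p 3.60e-12). The receptor EPHA5 had 6.54 and 6.90 in clone 3 and 76.4 and 112 in clone 4 (log2 fold change 3.78 ± 0.74, adjusted p 1.14e-05). EPHB2 had 210.1 and 327 in clone 3 and 16.3 and 71.6 in clone 4 (log2 fold change -2.86 ± 0.47, adjusted p 4.25e-08, 0.0626 without treated clone 3).

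Among synaptic and neuronal adhesion genes 6 of 29 tested members were called higher and 7 lower in clone 4 (median log2 fold change -0.18), 11 of 29 tested lower by edgeR. Again paralogs parted. TENM3, a teneurin, had 849 and 1008 in clone 3 and 1810.5 and 3149 in clone 4 (log2 fold change 1.37 ± 0.21, adjusted p 2.41e-09). TENM1 had 129 and 182 in clone 3 and 5.09 and 11.6 in clone 4 (log2 fold change -4.28 ± 0.63, adjusted p 9.17e-10). TENM4 had 442 and 511 in clone 3 and 121 and 205 in clone 4 (log2 fold change -1.58 ± 0.31, adjusted p 1.25e-05). CNTNAP1, a paranodal adhesion protein, had 1078 and 1069 in clone 3 and 97.8 and 95.9 in clone 4 (log2 fold change -3.47 ± 0.26, adjusted p 1.54e-38). CNTNAP3 had 144 and 216 in clone 3 and 402 and 560.4 in clone 4 (log2 fold change 1.43 ± 0.29, adjusted p 3.38e-05, 0.0625 without untreated clone 3). NRCAM, an immunoglobulin-class adhesion molecule, had 1303 and 1144 in clone 3 and 3116 and 3594 in clone 4 (log2 fold change 1.45 ± 0.19, adjusted p 1.95e-12) with 70.4 in parental cells. NLGN4X, a neuroligin, had 1418 and 1305 in clone 3 and 2496 and 2714 in clone 4 (log2 fold change 0.94 ± 0.19, adjusted p 1.76e-05). NEGR1 had 503 and 623 in clone 3 and 118 and 183 in clone 4 (log2 fold change -1.92 ± 0.29, adjusted p 2.72e-09). Clustered protocadherins were called for 1 gene in each direction among 35 tested (PCDHB13 higher, PCDHAC2 lower), below the background of all genes.

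Genes of growth factor families were called lower more often than higher, and receptor tyrosine kinases higher more often than lower. Among listed genes of the FGF, EGF, PDGF and VEGF families 1 of 25 tested members was called higher and 8 lower in clone 4 (median log2 fold change -0.16), of which 4 held in every omission. The 8 include FGF12 and FGF13. The EGF receptor ligands TGFA, AREG, BTC and EREG were called lower, while EGF and HBEGF were tested and not called. TGFA had 1429 and 1762 in clone 3 and 403 and 694 in clone 4 (log2 fold change -1.58 ± 0.22, adjusted p 9.89e-11). AREG had 671 and 643 in clone 3 and 267 and 242 in clone 4 (log2 fold change -1.37 ± 0.26, adjusted p 5.98e-06). The log2 fold change of BTC was -1.21 (adjusted p 4.15e-04, 0.0998 without treated clone 3). For EREG it was -0.61 (adjusted p 0.00423, 0.324 without treated clone 3, edgeR adjusted p 0.0527). FGF12, of the FGF family without a signal for secretion, had 258 and 241 in clone 3 and 5.09 and 5.27 in clone 4 (log2 fold change -5.59 ± 0.62, adjusted p 3.07e-17). VEGFA, the inducer of vessel growth, was the rise, with 3491 and 3593 in clone 3 and 5668 and 6258 in clone 4 (log2 fold change 0.75 ± 0.17, adjusted p 1.64e-04).

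For receptor tyrosine kinases 5 of 23 tested members were called higher and 3 lower in clone 4 (median log2 fold change -0.02; 0.02 after GC correction), and 4 of the 8 held in every omission. IGF1R had 115 and 142 in clone 3 and 358 and 783 in clone 4 (log2 fold change 2.06 ± 0.32, adjusted p 4.96e-09), highest in treated clone 4. ERBB4, a receptor of neuregulins, had 725 and 681 in clone 3 and 2361 and 2558 in clone 4 (log2 fold change 1.81 ± 0.19, adjusted p 1.45e-18). AXL had 3490.3 and 4171 in clone 3 and 7245 and 8394 in clone 4 (log2 fold change 1.03 ± 0.16, adjusted p 1.31e-08) and its relative MERTK a log2 fold change of 1.00 (adjusted p 0.00651, 0.0681 and 0.15 without untreated or treated clone 3). FGFR2 had 3124 and 3693 in clone 3 and 6554 and 6529.7 in clone 4 (log2 fold change 0.95 ± 0.17, adjusted p 1.04e-06). Falls were called for NTRK3, ERBB3 and MET. ERBB3, which pairs with other EGF-class receptors, had a log2 fold change of -1.25 (adjusted p 0.0207, 0.291 and 0.159 without untreated or treated clone 3). For MET, the receptor of hepatocyte growth factor, it was -0.58 (adjusted p 0.00555, 0.0517 and 0.285 without untreated or treated clone 3).

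In the insulin-like growth factor axis 6 of 13 tested members were higher and 3 lower (median log2 fold change 0.48), with 4, 8, 4 and 5 in the 4 omissions. Its binding proteins sequester the factors outside the cell. IGFBP3 had 5541 and 6553 in clone 3 and 22851 and 28163 in clone 4 (log2 fold change 2.07 ± 0.16, adjusted p 1.65e-37) with 606 in parental cells, alongside IGFBP5 above. IGFBP4 had 43.0 and 125 in clone 3 and 136 and 496 in clone 4 (log2 fold change 1.83 ± 0.37, adjusted p 2.17e-05, and 0.952, 0.133, 0.399 and 0.649 without untreated clone 3, untreated clone 4, treated clone 3 or treated clone 4), higher in the treated library of each clone. IGFBP2 had 3714 and 4274 in clone 3 and 5246 and 5898 in clone 4 (log2 fold change 0.48 ± 0.17, adjusted p 0.0388, and 0.671, 0.205 and 0.0597 without untreated clone 3, treated clone 3 or treated clone 4, edgeR adjusted p 0.0502). The adaptor IRS1, which passes on the receptor's signal, had 571 and 567 in clone 3 and 1139 and 1134 in clone 4 (log2 fold change 1.00 ± 0.22, adjusted p 1.10e-04). IGF2R, which clears IGF2, was lower with 3770.5 and 3906 in clone 3 and 2423 and 2704 in clone 4 (log2 fold change -0.58 ± 0.17, adjusted p 0.0102, 0.15 and 0.232 without untreated or treated clone 3). Normalized counts summed over the 15 measured members of the axis were 45354 and 48657 in clone 3, 78079 and 83390 in clone 4 and 69110 in the parental library.

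Output genes of the MAPK pathway were called for 3 rises and 6 falls among 29 tested (median log2 fold change -0.01; 0.04 after GC correction), with 2, 14, 2 and 12 in the 4 omissions, fewest when either library of clone 3 was left out. DUSP10, a phosphatase of stress kinases, was the member that held in every omission, with 679.8 and 671 in clone 3 and 228 and 277 in clone 4 (log2 fold change -1.43 ± 0.27, adjusted p 2.81e-06). JUNB had 534 and 455 in clone 3 and 269 and 189 in clone 4 (log2 fold change -1.13 ± 0.29, adjusted p 0.00164, 0.199 without untreated clone 3). MYC had 4488 and 4073 in clone 3 and 2883 and 2762 in clone 4 (log2 fold change -0.60 ± 0.17, adjusted p 0.0066, 0.254 and 0.0753 without untreated or treated clone 3). SPRY1, a feedback inhibitor, had 1784 and 1462 in clone 3 and 2788 and 2394 in clone 4 (log2 fold change 0.68 ± 0.18, adjusted p 0.00321, 0.391 without treated clone 3).

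Cyclic nucleotide genes parted by enzyme class. Guanylate and adenylate cyclases make cGMP and cAMP, and phosphodiesterases degrade them. Over the list 8 of 27 tested members were called higher and 4 lower in clone 4 (median log2 fold change 0.17, mean -0.10), and 8 of the 12 held in every omission. All 8 rises but 1 were phosphodiesterases. Besides PDE3A, PDE1A had 287 and 322 in clone 3 and 978 and 963 in clone 4 (log2 fold change 1.67 ± 0.24, adjusted p 1.57e-10). PDE3B had 765 and 1053 in clone 3 and 1948 and 2185 in clone 4 (log2 fold change 1.2 ± 0.20, adjusted p 7.28e-08) with 17.1 in parental cells. Other phosphodiesterases followed. PDE8A had 1078 and 1158 in clone 3 and 2454 and 2654 in clone 4 (log2 fold change 1.19 ± 0.18, adjusted p 6.13e-09). PDE7A had 959.9 and 1039 in clone 3 and 1841 and 1867 in clone 4 (log2 fold change 0.89 ± 0.19, adjusted p 1.11e-04). PDE7B had 135 and 148 in clone 3 and 354 and 329.7 in clone 4 (log2 fold change 1.27 ± 0.33, adjusted p 0.00226, 0.0713 without untreated clone 3). The cyclase ADCY5 was the remaining rise at 287 and 306 in clone 3 and 861 and 1406 in clone 4 (log2 fold change 1.90 ± 0.25, adjusted p 2.35e-12). The falls were in makers and effectors of the nucleotides. GUCY1A2, a subunit of soluble guanylate cyclase, had 339 and 459 in clone 3 and 3.06 and 3.16 in clone 4 (adjusted p 4.79e-22). PRKG1, the cGMP-dependent kinase, had 40.2 and 55.2 in clone 3 and 2.04 and 4.21 in clone 4 (log2 fold change -3.98 ± 1.06, adjusted p 0.00319, 0.0537 and 0.196 without untreated or treated clone 3). The cyclases were ADCY1 with 116 and 128 in clone 3 and 12.2 and 19 in clone 4 (log2 fold change -2.99 ± 0.61, adjusted p 2.86e-05) and ADCY3 with a log2 fold change of -2.48 (adjusted p 0.00575, and 0.134, 0.0644 and 0.414 without untreated clone 3, untreated clone 4 or treated clone 3).

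Of the 63 lists, glycolysis and hypoxia-response genes held the largest number of calls upward. Cells short of oxygen stabilise HIF factors, which raise glucose uptake, glycolysis and vessel growth genes. In clone 4 11 of 35 tested members were higher and 1 was lower (median log2 fold change 0.31), and 29 of 35 had a positive log2 fold change. The number called was 6, 14, 6 and 13 in the 4 omissions, and 6 members held in all of them. ANGPTL4, an inhibitor of lipoprotein lipase, had 161 and 152 in clone 3 and 391 and 500.3 in clone 4 (log2 fold change 1.5 ± 0.31, adjusted p 4.05e-05). ALDOC, a glycolytic aldolase, had 249 and 270.2 in clone 3 and 672 and 703 in clone 4 (log2 fold change 1.41 ± 0.26, adjusted p 1.99e-06). HK2, a hexokinase, had 1363 and 1378 in clone 3 and 2175 and 3258 in clone 4 (log2 fold change 0.96 ± 0.20, adjusted p 7.05e-05). In each of the 3, both libraries of clone 4 lay above both of clone 3, and the clones did not overlap in 60.88% of all tested genes. PFKFB4, which tunes glycolytic flux, had 276 and 238 in clone 3 and 521 and 689 in clone 4 (log2 fold change 1.22 ± 0.28, adjusted p 3.72e-04). NDRG1 had 807 and 824 in clone 3 and 1562 and 2133 in clone 4 (log2 fold change 1.16 ± 0.21, adjusted p 8.59e-07). CA9, a carbonic anhydrase of hypoxic tumours, had a log2 fold change of 2.51 (adjusted p 0.0155, and 0.192, 0.0613 and 0.12 without untreated clone 3, treated clone 3 or treated clone 4), and CA12, the fall, one of -0.82 (adjusted p 0.00297, and 0.0582, 0.74, 0.922 and 0.11 without untreated clone 3, untreated clone 4, treated clone 3 or treated clone 4).

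**Figure D4:**
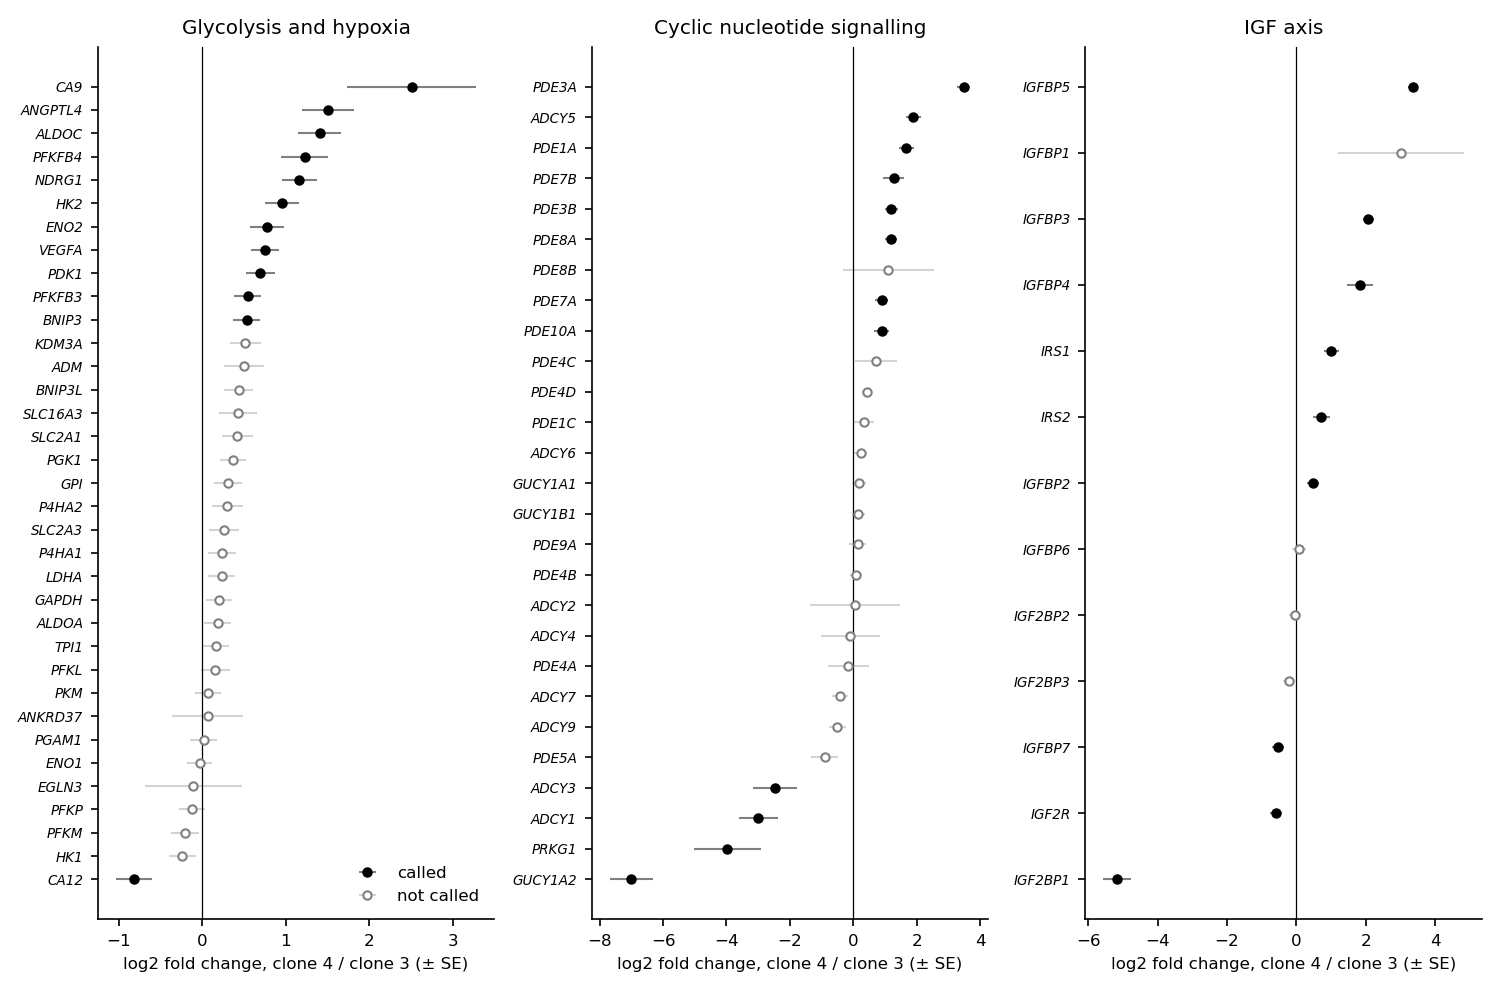
DESeq2 log2 fold change of clone 4 over clone 3 (horizontal axis, bars are SE) for every tested member of the glycolysis and hypoxia list, the cyclic nucleotide list and the insulin-like growth factor axis; filled points passed an adjusted p of 0.05. Filled points lie right of 0 for 11, 8 and 6 members and left of it for 1, 4 and 3.

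WNT genes differed at the level of receptors and of target genes. WNT ligands bind Frizzled and LRP receptors and release beta-catenin to act with TCF and LEF factors. Of 20 tested ligands and receptors 3 were higher and 5 lower (median log2 fold change -0.28), 2 of them in every omission. FZD1 had 889.9 and 924 in clone 3 and 1932 and 1811 in clone 4 (log2 fold change 1.04 ± 0.20, adjusted p 3.43e-06). FZD4 had 1213 and 1167 in clone 3 and 2026 and 2051 in clone 4 (log2 fold change 0.78 ± 0.19, adjusted p 8.54e-04, 0.0753 without treated clone 3). LRP5, the co-receptor, had 505 and 628 in clone 3 and 56.0 and 121 in clone 4 (log2 fold change -2.76 ± 0.33, adjusted p 4.13e-15). ROR1, a receptor of WNT5A, had 1223 and 1474 in clone 3 and 583 and 733 in clone 4 (log2 fold change -1.04 ± 0.21, adjusted p 2.07e-05, 0.0566 without treated clone 3). WNT7B had a log2 fold change of -1.03 (adjusted p 0.0163, 0.203 and 0.24 without untreated or treated clone 3). FZD1 and LRP5 were the calls that held.

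Antagonists and targets of WNT were called for 3 rises and 5 falls of 13 tested (median log2 fold change 0.17, mean -0.97). LEF1, both a mediator and a target of the pathway, had 140.1 and 222 in clone 3 and 1.02 and 1.05 in clone 4 (adjusted p 3.45e-09) and 1.01 in parental cells. AXIN2, the feedback target, had a log2 fold change of -1.07 (adjusted p 0.0131, and 0.297, 0.0578 and 0.131 without untreated clone 3, untreated clone 4 or treated clone 3). DKK3 had 320.3 and 288 in clone 3 and 55.0 and 65.3 in clone 4 (log2 fold change -2.34 ± 0.38, adjusted p 5.35e-08) with 1869 in parental cells. DKK1, a secreted inhibitor, had a log2 fold change of 0.92 (adjusted p 6.33e-05, and 0.221, 0.299 and 0.499 without untreated clone 3, untreated clone 4 or treated clone 4). ZNRF3, which removes Frizzled from the surface, had 734 and 873 in clone 3 and 1451 and 1635 in clone 4 (log2 fold change 0.94 ± 0.20, adjusted p 7.66e-05, 0.0586 without untreated clone 3). The number called was 2, 6, 4 and 7 in the 4 omissions.

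For TGF-beta, activin and BMP ligands and receptors 1 of 26 tested members was called higher and 3 lower in clone 4 (median log2 fold change 0.14, mean -0.33). INHBA, the activin A subunit, had 548 and 603 in clone 3 and 5.09 and 15.8 in clone 4 (log2 fold change -5.85 ± 0.48, adjusted p 4.08e-32). BMP8B had 135 and 153 in clone 3 and 17.3 and 37.9 in clone 4 (log2 fold change -2.47 ± 0.55, adjusted p 2.08e-04, 0.0655 without treated clone 3). Their antagonists and targets gave 5 rises and 3 falls of 19 tested (median log2 fold change 0.38, mean -0.17), of which 2 held in every omission. Of the ID genes, targets of BMP that bind helix-loop-helix factors, ID2, ID3 and ID4 were higher, and ID1 was not called (log2 fold change 0.45, adjusted p 0.0738, edgeR adjusted p 0.0749). ID3 had 1708 and 1566 in clone 3 and 3071 and 2590.2 in clone 4 (log2 fold change 0.79 ± 0.18, adjusted p 3.15e-04, 0.0931 without treated clone 3). The log2 fold change of ID2 was 0.57 (adjusted p 0.00788, 0.192 and 0.263 without untreated or treated clone 3). For ID4 it was 0.68 (adjusted p 0.00202, 0.144 and 0.0763 without untreated or treated clone 3). LTBP1, which anchors latent TGF-beta in the matrix, had 361 and 375 in clone 3 and 4.08 and 3.16 in clone 4 (log2 fold change -6.67 ± 0.66, adjusted p 5.64e-22). BAMBI, a pseudoreceptor, had 348 and 477 in clone 3 and 82.5 and 120.1 in clone 4 (log2 fold change -2.03 ± 0.33, adjusted p 2.64e-08).

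In the Notch pathway JAG1, a ligand, was the called member of 7 ligands and receptors, with 4309 and 4416 in clone 3 and 2598 and 2639 in clone 4 (log2 fold change -0.74 ± 0.17, adjusted p 3.45e-04). DNER, an atypical ligand, was the called member of 17 modifiers, at a log2 fold change of 0.74 (adjusted p 0.00956, and 0.288, 0.129 and 0.0821 without untreated clone 3, treated clone 3 or treated clone 4). HEY2 was the called member of 8 HES and HEY repressors (median log2 fold change -0.51), so its rise was not shared by the other tested members at this threshold (edgeR called 1 rise and 2 falls). Hippo effectors and YAP targets held 2 called genes of 19. ANKRD1 had 1219 and 1705 in clone 3 and 688 and 569.9 in clone 4 (log2 fold change -1.2 ± 0.24, adjusted p 1.43e-05) with 17.1 in parental cells. CCN2 had a log2 fold change of 0.88 (adjusted p 0.00433, 0.0544 and 0.152 without untreated or treated clone 3).

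HOX genes, which encode positional identity and are classical Polycomb targets, were split by cluster. Of 31 tested, 6 were higher and 4 lower (median log2 fold change 0.29, mean -0.16), all rises from the HOXA and HOXC clusters and all falls from HOXB. HOXB9 had 204 and 174 in clone 3 and 1.02 and 0 in clone 4 (adjusted p 3.77e-07). HOXB7 had 603 and 656 in clone 3 and 385 and 364 in clone 4 (log2 fold change -0.75 ± 0.25, adjusted p 0.0365, 0.203 and 0.388 without untreated or treated clone 3). The log2 fold change of HOXB6 was -1.65 (adjusted p 0.044, 0.264 and 0.421 without untreated or treated clone 3). For HOXB8 it was -4.51 (adjusted p 0.00547, 0.255 and 0.14 without untreated or treated clone 3). Among the rises HOXA5 had 1350.2 and 1222 in clone 3 and 2277 and 1931 in clone 4 (log2 fold change 0.71 ± 0.19, adjusted p 0.00292, 0.0667 and 0.221 without untreated or treated clone 3). HOXC10 had a log2 fold change of 0.75 (adjusted p 0.0202, 0.48 without treated clone 3). The number called was 3, 10, 1 and 8 in the 4 omissions, and HOXB9 was the gene that held in all 4.

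Other developmental transcription factors gave 6 rises and 10 falls of 67 tested (median log2 fold change -0.31). MSX2, a homeobox target of BMP signals, had 651 and 849 in clone 3 and 1997 and 2176 in clone 4 (log2 fold change 1.49 ± 0.20, adjusted p 7.12e-12), while its paralog MSX1 had 82.2 and 83.8 in clone 3 and 3.06 and 0 in clone 4 (adjusted p 6.31e-06). EYA1 had a log2 fold change of 3.03 (adjusted p 0.00568, and 0.161 and 0.0992 without untreated clone 3 or treated clone 4). Regulators of neural or gonadal development were lower. DLX1 had 176 and 135 in clone 3 and 9.17 and 6.32 in clone 4 (log2 fold change -4.34 ± 0.63, adjusted p 4.38e-10). FOXP2 had 140.1 and 137 in clone 3 and 17.3 and 25.3 in clone 4 (log2 fold change -2.72 ± 0.56, adjusted p 4.03e-05). LHX9 had 68.2 and 87.8 in clone 3 and 7.13 and 7.37 in clone 4 (log2 fold change -3.42 ± 0.78, adjusted p 3.12e-04, 0.071 without treated clone 3). The number called was 8, 20, 7 and 19 in the 4 omissions. Genes of clear cell and Mullerian identity were lower for 6 of 15 tested without a rise called by DESeq2 (1 by edgeR and 1 at an unadjusted p under 0.05; median log2 fold change -0.21). Among them WT1 had 171 and 168 in clone 3 and 0 and 2.11 in clone 4 (adjusted p 1.10e-08, 0.0623 and 0.0656 without untreated or treated clone 3). FOLR1, the folate receptor, had 159.7 and 202 in clone 3 and 18.3 and 28.4 in clone 4 (log2 fold change -2.97 ± 0.51, adjusted p 1.93e-07). NAPSA, an aspartic protease used to recognise clear cell carcinoma, had a log2 fold change of -3.27 (adjusted p 0.00954, 0.191 and 0.175 without untreated or treated clone 3).

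Regulators of the G1 phase held a large single-gene difference. CCND2, cyclin D2, had 28900.4 and 27750.2 in clone 3 and 315 and 302 in clone 4 (log2 fold change -6.52 ± 0.17), a difference whose p-value was too small for the software to state. The parental library, with 3595, lay between the clones. CCND1, cyclin D1, was lower as well with 13655 and 16673 in clone 3 and 5801 and 8671 in clone 4 (log2 fold change -1.09 ± 0.17, adjusted p 3.45e-09). CDK6, their kinase, had 16729 and 17279 in clone 3 and 10472 and 11069.6 in clone 4 (log2 fold change -0.66 ± 0.16, adjusted p 5.79e-04, 0.0693 without treated clone 3). CDKN2A, which encodes the p16 inhibitor of that kinase and p14ARF, had 1079 and 1437 in clone 3 and 125 and 161 in clone 4 (log2 fold change -3.13 ± 0.24, adjusted p 3.00e-36) and 60.4 in parental cells. Over the list of CDK inhibitors and cyclins 2 of 18 tested members were called higher and 5 lower in clone 4 (median log2 fold change 0.06, mean -0.45), 3 in every omission. The 45 cell cycle and mitosis genes gave 3 rises and 1 fall, none of which held in every omission. MKI67 had a log2 fold change of 0.67 (adjusted p 0.0187, and 0.15, 0.972 and 0.186 without untreated clone 3, treated clone 3 or treated clone 4, edgeR adjusted p 0.125). None of 33 tested DNA repair genes was called by DESeq2. edgeR called 1 higher and 0 lower, and at an unadjusted p under 0.05 there were 1 higher and 1 lower.

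Death pathway genes differed outside the anti-apoptotic BCL2 family, whose 4 tested members had 0 calls by DESeq2 and by edgeR and 0 higher and 0 lower at an unadjusted p under 0.05. In the pro-apoptotic family BIK had 60.7 and 95.6 in clone 3 and 3.06 and 2.11 in clone 4 (adjusted p 1.39e-05) and BOK a log2 fold change of -2.17 (adjusted p 6.35e-04, 0.0958 and 0.0629 without untreated or treated clone 3). BMF had a log2 fold change of 1.41 (adjusted p 0.00658, 0.154 without treated clone 3) and BCL2L11, which encodes BIM, one of 1.09 (adjusted p 0.0062, and 0.136, 0.0936 and 0.104 without untreated clone 3, treated clone 3 or treated clone 4). Among caspases, death receptors and IAP genes 1 of 28 tested members was called higher and 7 lower in clone 4 (median log2 fold change -0.20), of which 5 held in every omission. BIRC3, a ubiquitin ligase of the TNF receptor complex, had 8047 and 9310.2 in clone 3 and 1773 and 1427 in clone 4 (log2 fold change -2.44 ± 0.19, adjusted p 7.34e-37). BIRC2, its neighbour in that complex, had 6866 and 8491 in clone 3 and 4302 and 3997 in clone 4 (log2 fold change -0.88 ± 0.18, adjusted p 1.99e-05). Receptors and effectors were lower too. FAS, a death receptor, had 4534 and 4491 in clone 3 and 2551 and 2001 in clone 4 (log2 fold change -1.0 ± 0.18, adjusted p 1.09e-06). TNFRSF10A, a TRAIL receptor, had 655 and 785 in clone 3 and 287 and 295 in clone 4 (log2 fold change -1.30 ± 0.26, adjusted p 1.18e-05). MLKL, the effector of necroptosis, had 1157 and 1168 in clone 3 and 512 and 541 in clone 4 (log2 fold change -1.14 ± 0.22, adjusted p 5.47e-06). The libraries of the clones did not overlap in these genes, as in 60.88% of all tested genes. Targets of p53 gave 2 rises and 4 falls of 30 tested (median log2 fold change 0.12, mean -0.19). DDB2 had 692 and 698 in clone 3 and 2276 and 2292 in clone 4 (log2 fold change 1.72 ± 0.19, adjusted p 5.98e-17). SPATA18 had 252 and 273 in clone 3 and 14.3 and 17.9 in clone 4 (log2 fold change -4.03 ± 0.48, adjusted p 3.15e-15). TP53INP1 had 234 and 198 in clone 3 and 15.3 and 19 in clone 4 (log2 fold change -3.66 ± 0.50, adjusted p 3.01e-11).

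Chromatin regulators gave few calls. PRC2 members had a median log2 fold change of 0.37, with 11 of 12 tested above 0 and 1 called: SUZ12, a core subunit, with 1649.9 and 1946 in clone 3 and 2494 and 2821 in clone 4 (log2 fold change 0.57 ± 0.18, adjusted p 0.0208, 0.562 and 0.123 without untreated or treated clone 3). Of 22 PRC1 members L3MBTL2 was lower at a log2 fold change of -0.64 (adjusted p 0.0346, 0.468 and 0.154 without untreated or treated clone 3). The 27 SWI/SNF subunits gave 1 rise, ARID1B, the paralog of ARID1A, at a log2 fold change of 0.60 (adjusted p 0.0273, and 0.337, 0.319 and 0.162 without untreated clone 3, treated clone 3 or treated clone 4, edgeR adjusted p 0.053). Of 17 genes for DNA methylation and H3K27 demethylation 2 were higher and none lower by DESeq2 (0 by edgeR and 1 at an unadjusted p under 0.05; median log2 fold change 0.42, 16 of 17 above 0). TET1, which oxidises methylcytosine, had 464 and 455 in clone 3 and 1574 and 2081 in clone 4 (log2 fold change 1.98 ± 0.22, adjusted p 5.83e-18) and 1813 in parental cells. DNMT3A, a de novo methyltransferase, had a log2 fold change of 0.95 (adjusted p 0.0174, 0.263 and 0.115 without untreated or treated clone 3).

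The lists of imprinted genes and of cancer-testis and MAGE family genes contained several of the extreme values. In the chromosome 15q11-q13 region, which holds a cluster of imprinted genes, ATP10A (chr15:25922420-26110331) was lower as given above, and OCA2 had a log2 fold change of -2.57 (adjusted p 0.0143, and 0.194, 0.0577 and 0.357 without untreated clone 3, untreated clone 4 or treated clone 3). Elsewhere H19 and KCNQ1OT1 were higher, the latter with 4114 and 4008 in clone 3 and 5683 and 8579 in clone 4 (log2 fold change 0.78 ± 0.19, adjusted p 0.001, 0.0639 and 0.095 without untreated or treated clone 3). GRB10, an adaptor of the insulin receptor, had 1133 and 1354 in clone 3 and 319.9 and 611 in clone 4 (log2 fold change -1.48 ± 0.25, adjusted p 9.11e-08). GNAS had 4905 and 5265 in clone 3 and 2586 and 2765 in clone 4 (log2 fold change -0.93 ± 0.17, adjusted p 1.38e-06). The list of cancer-testis and MAGE family genes also holds NAP1L3, of the nucleosome assembly protein family. The 12 tested members of this list gave 4 falls and no rise called by DESeq2 (0 by edgeR and 0 at an unadjusted p under 0.05). NAP1L3 led them, and MAGED4 had a log2 fold change of -1.11 (adjusted p 0.00214, 0.169 without untreated clone 3), a value that can share reads with its near-identical copy MAGED4B.

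Metabolic and detoxification genes were called in both directions. Among retinoid and aldehyde genes 3 of 27 tested were higher and 5 lower (median log2 fold change 0.14, mean -0.78). ALDH1A3, a maker of retinoic acid, had 258 and 456 in clone 3 and 0 and 2.11 in clone 4 (adjusted p 2.89e-12). ALDH8A1 had 391 and 491 in clone 3 and 17.3 and 13.7 in clone 4 (log2 fold change -4.82 ± 0.43, adjusted p 7.26e-27). CRABP2, a retinoic acid carrier, had 218 and 225 in clone 3 and 13.2 and 25.3 in clone 4 (log2 fold change -3.57 ± 0.50, adjusted p 9.36e-11) with 1347 in parental cells. RARB, a retinoic acid receptor, had 119.5 and 89.7 in clone 3 and 278 and 281 in clone 4 (log2 fold change 1.43 ± 0.37, adjusted p 0.00193, 0.0983 without treated clone 3). Of 36 NRF2 and antioxidant genes 3 were higher and 3 lower. NQO1, a quinone reductase, had 23018 and 19858 in clone 3 and 48643 and 41598 in clone 4 (log2 fold change 1.07 ± 0.15, adjusted p 1.98e-10). GPX4, which repairs lipid peroxides, had 5006 and 5065 in clone 3 and 3085 and 2465 in clone 4 (log2 fold change -0.87 ± 0.18, adjusted p 3.12e-05). GSTP1 had 21929 and 25519.8 in clone 3 and 13246 and 12922 in clone 4 (log2 fold change -0.85 ± 0.16, adjusted p 4.22e-06). The 3 tested metallothioneins, which bind zinc and copper and can share reads among copies, were all lower. MT2A had 14195 and 13538 in clone 3 and 7275 and 7892 in clone 4 (log2 fold change -0.87 ± 0.16, adjusted p 2.32e-06). MT1F had 118 and 125 in clone 3 and 8.15 and 13.7 in clone 4 (log2 fold change -3.51 ± 0.65, adjusted p 2.11e-06) and MT1X a log2 fold change of -0.88 (adjusted p 0.00713, 0.172 and 0.0972 without untreated or treated clone 3).

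ABCB1, the P-glycoprotein efflux pump, was the called member of 6 pumps, with 999 and 913 in clone 3 and 12.2 and 24.2 in clone 4 (log2 fold change -5.74 ± 0.38, adjusted p 1.42e-49) and 7.04 in parental cells. Cholesterol genes gave 1 rise and 2 falls of 24 tested (median log2 fold change -0.13), of which HMGCS1, an early enzyme of the pathway, had 5776 and 5077 in clone 3 and 2835 and 2140.4 in clone 4 (log2 fold change -1.14 ± 0.17, adjusted p 2.73e-09). Fatty acid genes gave 2 rises and 5 falls of 27, with 324 and 359.9 in clone 3 and 42.8 and 88.5 in clone 4 (log2 fold change -2.46 ± 0.39, adjusted p 2.05e-08) for ELOVL4, an elongase, and 384 and 369.8 in clone 3 and 760.0 and 862 in clone 4 (log2 fold change 1.10 ± 0.24, adjusted p 1.43e-04) for SCD5, a desaturase.

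Surface glycan genes included GALNT6, a relative of GALNT13, with 395 and 471 in clone 3 and 12.2 and 8.43 in clone 4 (log2 fold change -5.38 ± 0.47, adjusted p 1.74e-27), and GCNT1, which branches O-glycans, with 448 and 593 in clone 3 and 120.2 and 198 in clone 4 (log2 fold change -1.74 ± 0.30, adjusted p 2.03e-07). ST6GALNAC3 rose with 99.0 and 118 in clone 3 and 299.5 and 339 in clone 4 (log2 fold change 1.56 ± 0.35, adjusted p 1.79e-04), so 2 of 26 mucin-type genes were higher and 3 lower. Sialyl and fucosyltransferases gave 2 rises and 2 falls of 16 tested. FUT8 was higher with 878 and 894 in clone 3 and 1630.1 and 1785 in clone 4 (log2 fold change 0.95 ± 0.20, adjusted p 5.05e-05) and FUT11 with a log2 fold change of 1.19. FUT1 was lower with 85.9 and 69.0 in clone 3 and 13.2 and 17.9 in clone 4 (log2 fold change -2.32 ± 0.71, adjusted p 0.0148, 0.329 and 0.128 without untreated or treated clone 3), and ST6GAL2 was lower with 36.4 and 43.4 in clone 3 and 2.04 and 1.05 in clone 4 (adjusted p 0.00422, 0.0678 and 0.131 without untreated or treated clone 3). Complement and coagulation genes gave 4 rises and 3 falls of 24 (median log2 fold change 0.02, mean -0.33). TFPI, the inhibitor of tissue factor, had 2972 and 3367 in clone 3 and 8706 and 7311 in clone 4 (log2 fold change 1.33 ± 0.18, adjusted p 6.20e-12). TFPI2 had 8893 and 6895 in clone 3 and 18246 and 16644 in clone 4 (log2 fold change 1.15 ± 0.16, adjusted p 8.80e-11). Complement C5 had 975 and 787 in clone 3 and 2168 and 1777 in clone 4 (log2 fold change 1.16 ± 0.19, adjusted p 8.20e-08). C3 had 11307 and 7076 in clone 3 and 4421 and 3768 in clone 4 (log2 fold change -1.13 ± 0.18, adjusted p 1.00e-08, and 0.112 and 0.279 without untreated clone 4 or treated clone 4).

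Ribosomal and respiratory chain genes had called shares below the 9.81% of all tested genes, a difference that was not tested. Ribosomal proteins gave 1 call of 74 tested (RPL30, edgeR adjusted p 0.0616) and nuclear-encoded respiratory chain genes 1 of 72 (COX6C, edgeR adjusted p 0.104). Unfolded protein and stress response genes gave 4 rises of 31 and no fall called by DESeq2 (0 by edgeR and 1 at an unadjusted p under 0.05). VLDLR, a lipoprotein receptor, had 2237 and 2209 in clone 3 and 3813 and 4126 in clone 4 (log2 fold change 0.84 ± 0.17, adjusted p 4.40e-05) and was the member that held in every omission. Lysosomal genes gave 2 calls in each direction of 40 tested. Over the 63 lists, 54 had a called share above the 9.81% of all tested genes and 9 had one below, but the lists were chosen with earlier results of these data known, so this count describes the choice. In 40 lists falls outnumbered rises, in 15 rises outnumbered falls and in 8 they were equal. In 19 lists the median and the mean of the log2 fold change differed in sign, and genes at 0 in 1 clone did not shift a median when set to their bound (largest shift 0).

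**Figure D5:**
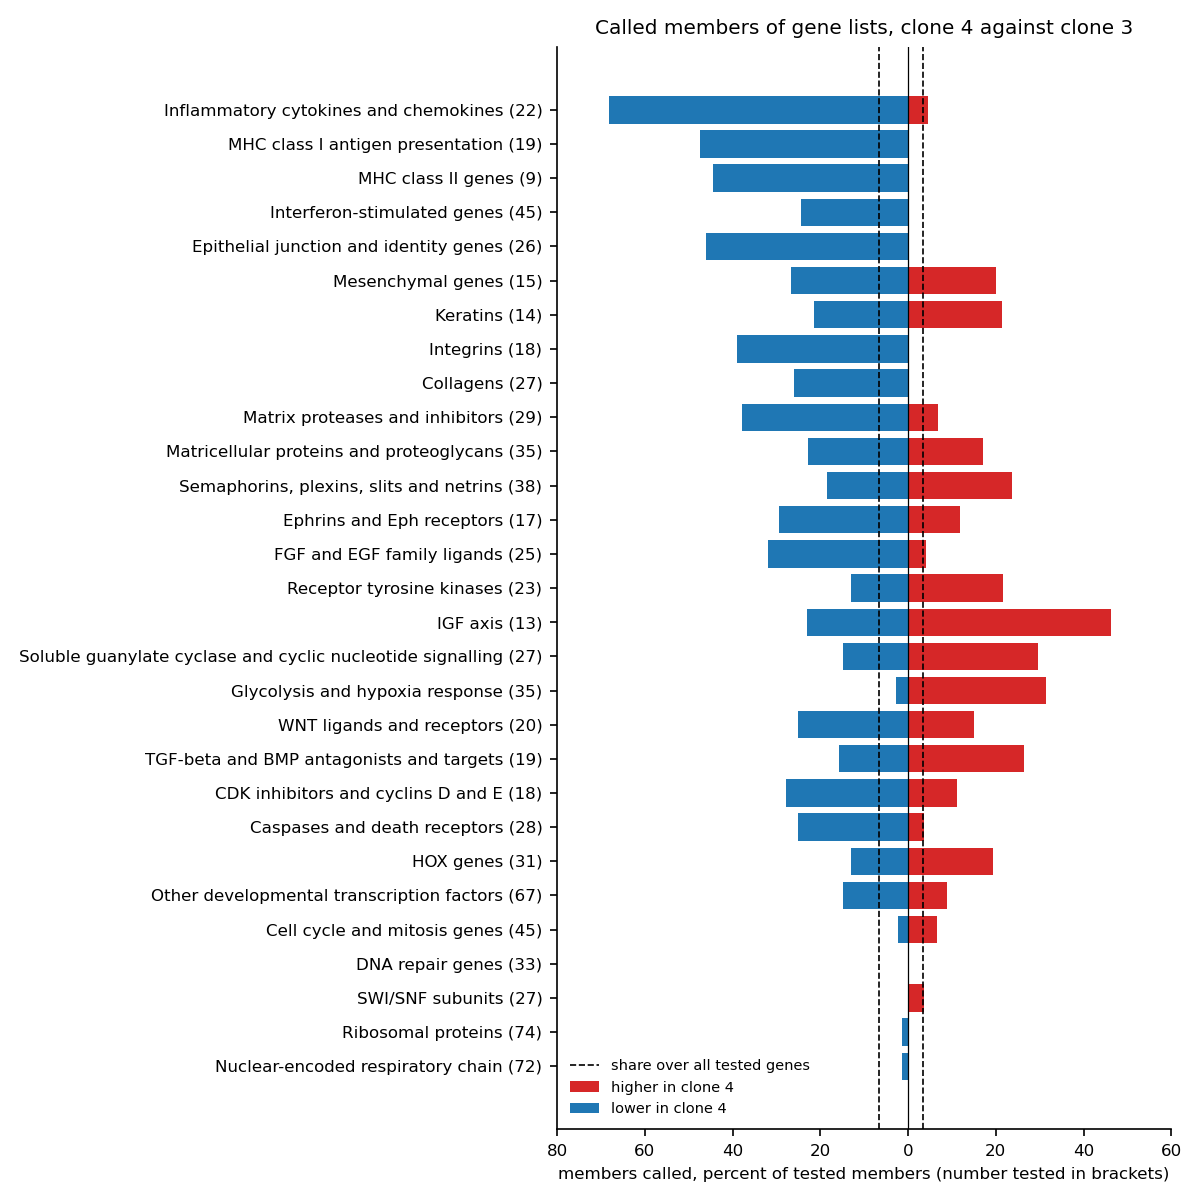
Share of tested members called higher (red, to the right) or lower (blue, to the left) in clone 4 for gene lists, in percent, with the number tested in brackets; dashed lines mark the shares over all tested genes (3.3% and 6.52%). Cytokines, MHC genes, epithelial genes and integrins extend to the left, and the insulin-like growth factor axis, cyclic nucleotide and hypoxia lists to the right.

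Gene families grouped by symbol also held more falls than rises in most cases. Of 45 families with at least 8 tested members, falls outnumbered rises in 32 and rises outnumbered falls in 4. Solute carriers, the largest family of membrane transporters, were lower for 34 and higher for 8 of 257 tested genes. Zinc finger genes named ZNF were called for 5.64% of 443, below the background, with 11 rises and 14 falls. Tubulins were lower for 6 of 13 with no rise called by DESeq2 (0 by edgeR and 0 at an unadjusted p under 0.05), although their copies can share reads. TUBB3, of neurons, had 9642 and 9147 in clone 3 and 3693 and 3836 in clone 4 (log2 fold change -1.32 ± 0.16, adjusted p 6.44e-14). Myosins gave 1 rise and 6 falls of 16, with 280.1 and 299 in clone 3 and 8.15 and 16.9 in clone 4 (log2 fold change -4.58 ± 0.50, adjusted p 7.54e-18) for MYO5C, a vesicle motor of epithelia. Serpins, mostly protease inhibitors, were lower for 5 of 15 with no rise called by DESeq2 (0 by edgeR and 0 at an unadjusted p under 0.05). SERPINB9, the granzyme B inhibitor, had 3209 and 3132 in clone 3 and 451 and 514 in clone 4 (log2 fold change -2.72 ± 0.19, adjusted p 9.14e-43).

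Sulfotransferases of carbohydrates were lower for 5 of 16 with no rise called by DESeq2 (0 by edgeR and 0 at an unadjusted p under 0.05), with 1205 and 1368 in clone 3 and 8.15 and 10.5 in clone 4 (log2 fold change -7.11 ± 0.41, adjusted p 6.33e-63) for HS6ST2. CHST15 had 423 and 452 in clone 3 and 0 and 2.11 in clone 4 (adjusted p 1.21e-13). Connexins, the gap junction channels, were lower for 2 of 5 tested. GJA1, connexin 43, had 5831 and 6053 in clone 3 and 59.1 and 64.3 in clone 4 (log2 fold change -6.59 ± 0.22, adjusted p 1.06e-194). GJC1 had a log2 fold change of -0.90 (adjusted p 3.03e-04, 0.0636 without treated clone 3). Kruppel-like factors were lower for 4 of 13 (KLF6, KLF9, KLF13 and KLF10). In the TNF receptor superfamily 4 of 15 were lower (0 by edgeR and 0 at an unadjusted p under 0.05 in the other direction), among them TNFRSF9 at a log2 fold change of -3.02 (adjusted p 0.00246, 0.302 without treated clone 3). Nuclear receptors gave 1 rise and 1 fall of 17 tested. NR2F2, an orphan receptor, was higher with 1968 and 1827 in clone 3 and 3542 and 5000.2 in clone 4 (log2 fold change 1.15 ± 0.20, adjusted p 2.66e-07), and its paralog NR2F1 was lower with 19.6 and 20.7 in clone 3 and 0 and 0 in clone 4 (at least 6.49-fold lower, adjusted p 0.0143, none and 0.188 without untreated or treated clone 3). Heat shock proteins (2 of 59), mitochondrial ribosomal proteins (2 of 76) and DEAD-box helicases (0 of 32) had fewer calls than the background share. For the helicases edgeR also gave 0 calls, and at an unadjusted p under 0.05 there were 0 higher and 2 lower.

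By mean log2 normalized count, clone 4 lay farther from the parental library than clone 3 in 914 of the 1738 called genes (52.59%, Wilson 95% interval 50.24 to 54.93 for counting error only, genes not being independent). The share was 52.23% of the higher and 52.77% of the lower genes. There is 1 parental library, so no distance from it could be set against a spread. The share of tested genes called ran from 7.12% on chromosome 19 to 14.05% on chromosome 8. Median log2 fold changes per chromosome ran from -0.12 on chromosome 8 to 0.06 on chromosome 18.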

How the data were processed

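Total RNA was extracted with Trizol and sequenced from TruSeq Stranded Total RNA libraries of parental TOV21G cells and of EIR clones 3 and 4, each clone with and without GSK126. The authors deposited estimated counts per Ensembl gene, made with Bowtie2 and RSEM (1.2.3 per the labels) on hg19. The Ensembl release and whether counting used strand are not given in the sources used here, so overlapping and antisense genes cannot be told apart. All values were whole numbers, and 0 columns were left unused. Symbols came from GENCODE release 44 on GRCh37 (29203 of 30476 identifiers matched, 1273 did not).

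Clone 4 was compared with clone 3 over 4 libraries in DESeq2 1.42.0 (R 4.3.3; Wald test, two-sided, treatment as covariate, adjusted by Benjamini-Hochberg to p under 0.05). The tool and the threshold are those the study names, and the comparison and its covariate were chosen here. This left 1 residual degree of freedom. The covariate pairs untreated with untreated and treated with treated libraries, a pairing given by the labels. edgeR 4.0.16 (quasi-likelihood) and 13 further settings served as alternatives, and the DESeq2 and edgeR fits were tested on simulated data. Normalized counts used median-of-ratios factors. Tables were made with Python 3.11.15, pandas 2.3.3 and scipy 1.17.1. Lists and symbol families are described by counts and medians, with no set test. The members, the 63 lists and the 50 families were chosen with earlier results of these data known, and family patterns were tightened after viewing their matches.

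Named were the 15 largest rises and 15 largest falls among genes called by both tools in the same direction under both treatments, averaging at least 100 normalized counts. From each list or family up to 5 called members per direction, and any member it is named for, could be named, as could SMARCA4, SMARCA2, ARID1A, EZH2 and BCL2. Further called members are given by symbol or log2 fold change where they complete a list, chosen after their values were seen, as were VIM and MIR99AHG. A bound against 0 used 3 counts per library, and bounds and 95% Wilson intervals cover counting error only. Some genes that this rule names are not reported here.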

Additional observations from a re-analysis of the deposited data

How the results depend on the processing

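Falls outnumbered rises under every setting tried. With a 2-fold minimum there were 1096 calls (269 higher). Without the replicate block, that is with the treatment covariate that pairs libraries left out, there were 2541 calls, 926 of them higher. Leaving out 1 library gave 831 to 2800 calls, 225 to 1026 higher and 570 to 1774 lower. The lowest totals came without treated clone 3 (831) and untreated clone 3 (875) and the highest without untreated clone 4 (2800); these fits drop treatment and assume that the lone library of a clone varies like the others. edgeR (2227), TMM factors (1748), total scaling (1747), both count filters (1780 and 1563), no independent filtering (1513), GC correction (1929) and the requirement of both tools (1621) stayed within 1.5 times the main count. Of 593 genes followed, none turned direction among those called. Calls were lost for 248 of 585 without untreated clone 3, 266 of 588 without treated clone 3, 63 of 592 without untreated clone 4 and 51 of 592 without treated clone 4. They were lost for 31 by edgeR, 57 without independent filtering, 17 by total scaling, 17 by GC correction and 0 by TMM factors. The medians of the MAPK, cell cycle and stress response lists changed sign under total scaling and under edgeR, and 11 of 113 list or family medians did so under GC correction. Sign changes were most frequent with at least 10 counts in every library (17 medians), without untreated (16) or treated (15) clone 4 and without treated clone 3 (13), and numbered 0 to 7 under the other settings. With 2 libraries per clone, differences near the spread between libraries were not detectable.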
